A study of Mus musculus with 16 samples.

Results

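Vitamin B12 (cobalamin) reaches only 2 enzymes in mouse cells, and the genes described here are those that carry it there. The 10 genes were taken by symbol from the deposited gene counts, which list 57186 genes. Lmbrd1 and Abcd4 encode the lysosomal membrane proteins that release cobalamin into the cytosol. Mmachc and Mmadhc encode the chaperones that strip its upper ligand and route it to its targets. Mtr and Mtrr encode methionine synthase and the reductase that reactivates it. Mmut, Mmaa, Mmab and Mcee encode the mitochondrial arm around methylmalonyl-CoA mutase. All 10 passed the filter of at least 100 counts over all libraries, as did 25408 genes in all.

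Kidney RNA from 16 male mice on a C57BL/6J background, 16 weeks old, was compared in 4 labelled groups of 4. Non-diabetic Elmo1H/H Ins2+/+ mice were left untreated (ND_C) or given B12 (ND_B12), and diabetic Elmo1H/H Ins2Akita/+ mice were left untreated (D_C) or given B12 (D_B12). B12 was supplied in drinking water at 10 mg/kg per day from 8 weeks of age. Treatment is given as 8 weeks long in the methods and as 16 weeks long on the labels. Every animal, controls included, carried Elmo1H/H, which overexpresses Elmo1. The Akita allele impairs insulin secretion from the beta cell through misfolded proinsulin, so no group was diabetic by diet or toxin. Each library is whole-kidney RNA, in which fewer cells of a type and less RNA per cell cannot be told apart.

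Cobalamin bound to transcobalamin is taken up by endocytosis and freed in the lysosome. Once in the cytosol it is either methylated on methionine synthase, which moves the methyl group of 5-methyltetrahydrofolate to homocysteine, or carried into mitochondria and adenosylated. Adenosylcobalamin serves methylmalonyl-CoA mutase, the last step by which propionyl-CoA from valine, isoleucine, methionine, threonine and odd-chain fatty acids enters the citric acid cycle as succinyl-CoA. The kidney proximal tubule recovers filtered transcobalamin-bound B12, and loss of the mutase in patients damages the kidney as well as raising methylmalonic acid. Mmachc is known to be under the control of Hcfc1 with Thap11 and Zfp143, and mutations in those factors lower its expression in patients.

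RefSeq start-site windows, from 250 bases before to 50 bases after an annotated start on GRCm38.p6, were given for 7 of the 10 genes. Those matched were Lmbrd1, Mmachc, Mtr, Mtrr, Mmaa, Mmab and Mcee. Abcd4, Mmadhc and Mmut were not matched. The windows of Mtr and Mmachc are shown because these were the 2 genes with an unadjusted p below 0.05 between D_B12 and D_C, and because they were the only 2 of the 7 to hold the letters ACTACANNTCCCA (reverse complement TGGGANNTGTAGT), the core recognised by Thap11 and Zfp143 complexes. Capitals mark the match on either strand. The motif was chosen after these windows and the values of the genes had been seen.
Mtr, minus strand, chr13:12258064-12258363: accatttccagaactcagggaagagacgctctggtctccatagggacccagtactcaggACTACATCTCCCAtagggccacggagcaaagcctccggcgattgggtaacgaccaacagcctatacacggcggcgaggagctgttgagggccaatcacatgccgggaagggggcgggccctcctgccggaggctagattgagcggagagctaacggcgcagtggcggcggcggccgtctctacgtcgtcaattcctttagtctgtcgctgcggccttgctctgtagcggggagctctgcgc
Mmachc, minus strand, chr4:116708336-116708635: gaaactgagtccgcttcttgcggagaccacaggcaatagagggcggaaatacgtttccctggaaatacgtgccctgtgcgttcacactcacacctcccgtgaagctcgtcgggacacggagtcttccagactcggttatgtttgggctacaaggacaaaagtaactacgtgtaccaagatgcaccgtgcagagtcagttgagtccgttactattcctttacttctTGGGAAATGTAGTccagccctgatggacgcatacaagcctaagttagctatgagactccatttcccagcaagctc
The match began 191 bases before the start in Mtr, on the gene's own strand, and 25 bases before it in Mmachc, on the opposite strand. These letters occurred in 484 of 32851 windows of the same length (1.47%) and in 458 of 27025 genes (1.69%). An E-box (CACGTG), the site of clock activators, was in 0 of the 7 genes and in 8.09% of all genes. The GC box (GGGCGG, or CCGCCC on the other strand) was in all 7 and in 38.2% of all genes. Neither overlapped the capitals. A match describes letters in a window and does not show that a factor binds there.

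Library totals ran from 65271308 to 91771136 counts. Sampling error follows each member's own counts, which were fewest for Mtrr (665 to 1086 a library), and adds to the spread between mice. Kidney markers were present in every library. Proximal tubule genes summed to between 7304 and 9183 CPM in every library, skeletal muscle markers reached at most 0.419 CPM, and the adrenal list, with 1 of 3 genes at 0 counts throughout, summed to between 3.57 and 7.37 CPM. Adipocyte markers varied most, from 0.134 to 52.4 CPM, and ranged widely in every group. Liver markers, which kidney also expresses in part, summed to between 615 and 1302 CPM. Summed proximal tubule markers were 8368 to 8983 CPM in ND_C and 8812 to 9183 in ND_B12, against 7304 to 8359 in D_C and 7567 to 8370 in D_B12, with 1 of 7 called lower in diabetes on average. Collecting duct markers had 2 of 3 called higher in untreated diabetes, at 140.4 to 201.1 CPM in ND_C and 241 to 479 in D_C. Thick limb markers summed to 2782 to 3869 CPM in D_C and 2155 to 2500.0 in D_B12, with 0 of 3 called and 2 lower at an unadjusted p below 0.05. The part of these shifts in the results below was not tested. Group and date in the library names also move together. Only 2 dates held libraries of more than 1 group, and none held both D_C and D_B12.

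The labels themselves are in doubt. For 178 genes, means over each of 1820 possible sets of 4 libraries were set against the study's printed group means. The best sets differed from those means by a median of at most 0.000263 on the log2 scale, while the sets named by the labels differed by 0.0386 to 0.299. Of the 16 libraries, 5 fell in the group of their label and 11 in another, and the 4 libraries labelled D_B12 were the set that met the printed untreated diabetic means. D_C 1 was in the set that met the printed means of B12-treated non-diabetic mice. ND_B12 4 was in the set that met the printed means of B12-treated diabetic mice, together with D_C 2, D_C 3 and D_C 4. Comparisons of diabetes are thus in doubt as well as those of B12. Groups and directions below are those of the deposited labels, and any sign between groups holds for the labels only.

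All 10 genes were clearly expressed, over a wide range of levels per kilobase. Mmut stood highest at 101 TPM (SD 11.3, range 76.9 to 119.9), above 95.8% of the protein-coding genes listed. It was higher than every other member in 16 of 16 libraries. Next came Mmadhc at 50.5 TPM (SD 3.76, range 46.4 to 59.7) and Mcee at 47.99 TPM (SD 3.14, range 41.2 to 53.9), whose ranges overlapped and whose order held in 13 of 16 libraries. Lmbrd1 followed at 28.97 TPM (SD 3.09, range 24.2 to 35.5), apart from its neighbours above and below. The order then ran through Abcd4 at 13.7 TPM (SD 2.44, range 10.99 to 19.2), Mmachc at 12.3 TPM (SD 0.925, range 10.4 to 14.7), Mmaa at 11.4 TPM (SD 1.77, range 7.73 to 14.3), Mmab at 9.01 TPM (SD 0.809, range 7.49 to 10.04) and Mtr at 8.89 TPM (SD 1.05, range 7.35 to 10.5), and each of these overlapped its neighbour in that list. Mtrr was lowest at 4.92 TPM (SD 0.460, range 4.12 to 6.06), below Mtr in every library and above 49.9% of listed protein-coding genes. The lower ranks depend on the transcript lengths used. With the length of each gene's longest transcript Mmaa was lowest at 2.07 TPM, below Mtrr at 3.81 TPM, and Mmab (6.18 TPM) stood below Mtr (9.54 TPM). Mutase transcripts were thus 11.4 times as abundant per kilobase as methionine synthase transcripts, by the ratio of the means.

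**Figure D1:**
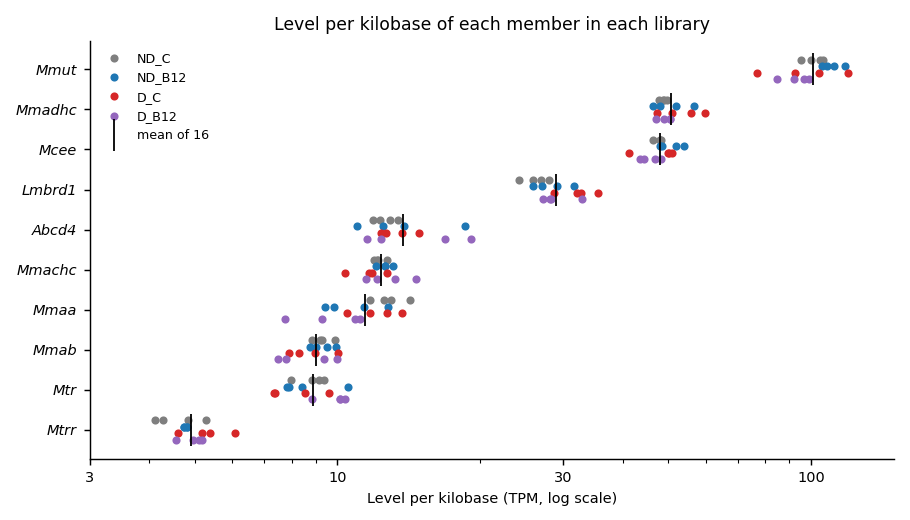
Level per kilobase (TPM, log axis) of each member in each of the 16 libraries, coloured by labelled group, with a vertical bar at the mean of 16. Mmut is at the top at a mean of 101 TPM and Mtrr at the bottom at 4.92 TPM, and the colours mix within each gene.

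Within each gene the 16 libraries stayed close together. The highest normalized count exceeded the lowest by between 1.21-fold, in Mtrr, and 1.71-fold, in Abcd4. Coefficients of variation over all 16 were 6.16% for Mtrr, 6.65% for Mmadhc, 7.34% for Lmbrd1, 7.41% for Mcee, 8.02% for Mmaa, 8.05% for Mmachc, 9.54% for Mmab, 11.2% for Mmut, 11.4% for Mtr and 17.1% for Abcd4. The biological coefficient of variation estimated by edgeR was 0.163 for Abcd4 and between 0.0744 and 0.0997 for the other 9, against 0.201 for all genes in common. The intervals below are therefore narrow for every member but Abcd4.

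**Figure D2:**
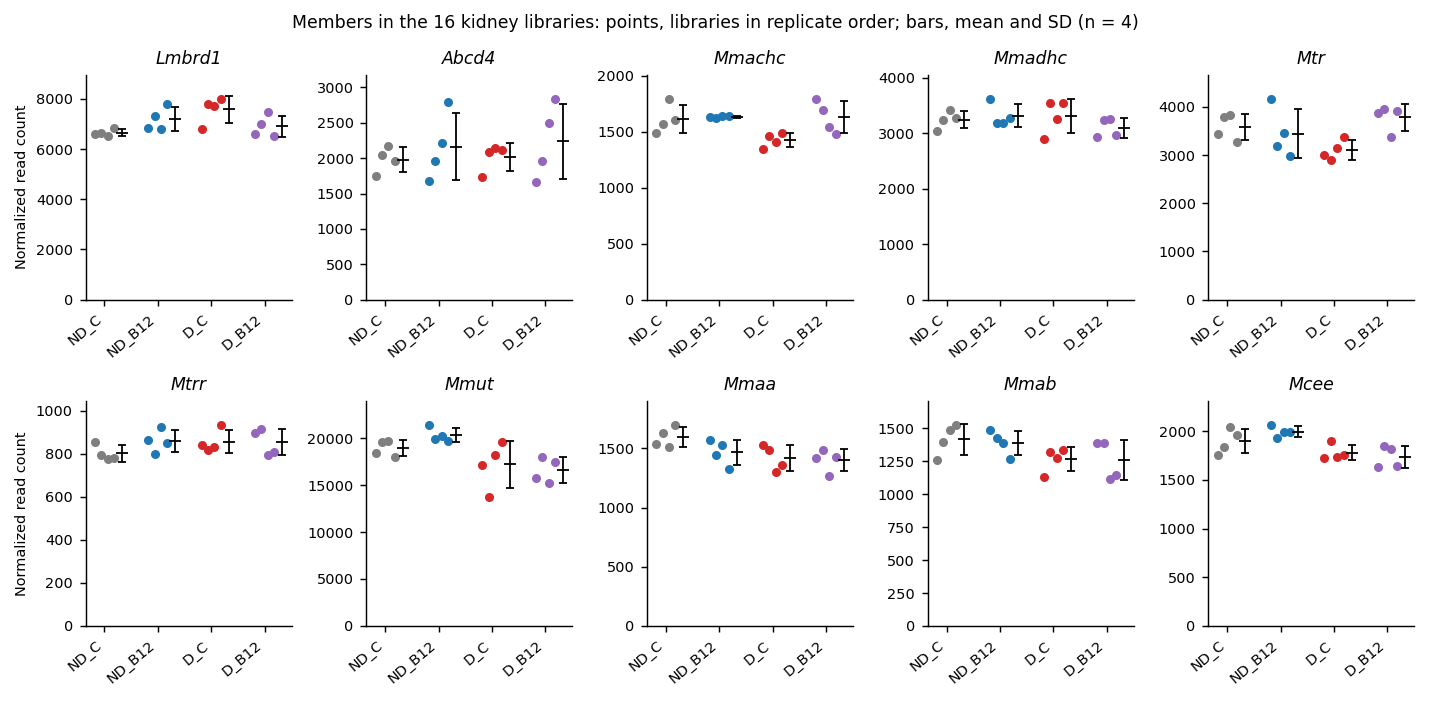
Normalized read counts (read counts corrected for library size by median-of-ratios factors, linear axes from 0) of the 10 members. Points are the 16 libraries in replicate order within each labelled group, and bars are mean and SD of 4. The 4 D_C points of Mmachc sit between 1348 and 1486 and all ND_C points between 1491 and 1791.

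Methionine synthase, Mtr, differed most between the labelled diabetic groups. Its normalized counts were 3000.2, 2905, 3142 and 3376 in D_C and 3870.0, 3966, 3376 and 3917 in D_B12. In non-diabetic kidneys they were 3428, 3782, 3838 and 3281 untreated and 4172, 3184, 3448 and 2988 with B12. D_C was the lowest group, and 3 of the 4 D_B12 libraries stood above all of D_C by a clear margin. The fourth, D_B12 3, exceeded D_C 4 by 0.25 counts only, and by the scaling of TPM D_C 4 (9.62 TPM) lay above D_B12 3 (8.83 TPM). Group means with SD were 3782 ± 273 for D_B12 and 3106 ± 205 for D_C (n = 4 each). The difference was 1.22-fold, with a 95% interval of 1.07 to 1.39 (log2 fold change 0.29, SE 0.09, adjusted p = 0.182). Its exact permutation p was 0.0286, the smallest that 4 against 4 can give. Between D_C and ND_C, a comparison that shares the D_C libraries, Mtr was lower (log2 fold change -0.21, SE 0.09, adjusted p = 0.234). The interaction of diabetes and B12 gave log2 fold change 0.34, SE 0.13, adjusted p = 0.209. No adjusted p for Mtr was below 0.05 in any alternative, and the lowest was 0.0562, for the interaction without ND_B12 1.

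Its reductase Mtrr did not differ between groups beyond the spread. Counts were 856, 793, 774 and 779 in ND_C and 864, 799, 921 and 850.0 in ND_B12. They were 842, 817, 831 and 933 in D_C and 896, 914, 795 and 808 in D_B12. All 4 groups overlapped. D_B12 and D_C differed 0.999-fold, with a 95% interval of 0.899 to 1.11.

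Mmachc, the chaperone that removes the upper ligand of cobalamin, was lowest in D_C. Its counts there were 1348, 1460.2, 1410.3 and 1486. In ND_C they were 1491, 1565, 1791 and 1603, in ND_B12 1631, 1618, 1637 and 1642 and in D_B12 1795, 1696, 1540.2 and 1479. Every D_C library lay below every ND_C library, by 4.32 counts at the closest pair, while D_C overlapped D_B12. By the scaling of TPM D_C 4 (12.75 TPM) lay above all of ND_C (11.96 to 12.71 TPM). Between D_B12 and D_C the difference was 1.14-fold, with a 95% interval of 1.03 to 1.27 (log2 fold change 0.19, SE 0.07, adjusted p = 0.24). Between D_C and ND_C it was 0.884-fold, with a 95% interval of 0.798 to 0.981 (log2 fold change -0.18, SE 0.07, adjusted p = 0.187). Over both genotypes together, B12 against no B12 gave log2 fold change 0.11, SE 0.05, adjusted p = 0.95. The 4 ND_B12 libraries differed among themselves by 24 counts. That is closer than counting error alone would usually leave at this level, so it does not describe the spread between mice.

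Its partner Mmadhc, which directs cobalamin to the cytosol or the mitochondrion, showed no difference past the unadjusted threshold in any comparison. Counts were 3046, 3233, 3426 and 3272 in ND_C, 3623, 3183, 3187 and 3273 in ND_B12, 2902, 3544, 3259.7 and 3541 in D_C and 2931, 3246, 3254 and 2961 in D_B12. D_C held both the lowest count of all and 2 of the highest 3. D_B12 against D_C was 0.937-fold, with a 95% interval of 0.845 to 1.04.

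Of the lysosomal exporters, Lmbrd1 was highest in D_C. Counts were 6799, 7797, 7716 and 8010.0 in D_C and 6587, 6626, 6540.1 and 6842 in ND_C. In B12-treated mice they were 6595, 7013, 7465 and 6532 in D_B12 and 6831, 7338, 6814 and 7790.0 in ND_B12. D_C 2, 3 and 4 (7716 to 8010.0 counts) lay above all of ND_C, and D_C 1 lay within its range. Diabetes without B12 gave 1.14-fold, with a 95% interval of 1.04 to 1.25 (log2 fold change 0.19, SE 0.06, adjusted p = 0.126), and without D_C 1 the adjusted p was 0.0352. The interaction gave log2 fold change -0.25, SE 0.09, adjusted p = 0.186. B12 in non-diabetic kidneys, where Lmbrd1 had the smallest p of the 10, gave log2 fold change 0.12, SE 0.06, adjusted p = 0.7.

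Abcd4, the transporter that works with Lmbrd1, varied more among mice of a group than between groups. Counts were 1748, 2039, 2168 and 1957 in ND_C and 1674, 1960.4, 2221 and 2797 in ND_B12. They were 1729.7, 2092, 2144 and 2112 in D_C and 1657, 1957, 2504 and 2841 in D_B12. All 4 groups overlapped, and in each group the lowest count belonged to replicate 1, a number given to the animals by the labels. B12 in diabetic kidneys gave 1.11-fold, with a 95% interval of 0.877 to 1.40, the widest interval of the 10. With the date of the library name as a covariate this difference turned to -0.43 on the log2 scale.

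Methylmalonyl-CoA mutase, Mmut, had lower mean counts in diabetic than in non-diabetic kidneys, a difference that passed the adjusted threshold in DESeq2 and not in edgeR. Counts were 21404, 19857, 20212 and 19739.9 in ND_B12 and 15775, 18012, 15172 and 17438 in D_B12. Untreated mice had 18437, 19606, 19706 and 17949.8 in ND_C and 17175, 13756, 18245 and 19607 in D_C. Among B12-treated mice the groups did not overlap, whereas D_C ran from the lowest library of all, D_C 2, to D_C 4, which lay within the range of ND_C. In B12-treated mice the difference was 0.816-fold, with a 95% interval of 0.718 to 0.928 (log2 fold change -0.29, SE 0.09, adjusted p = 0.104), with an exact permutation p of 0.0286. Over 8 diabetic and 8 non-diabetic libraries it was 0.861-fold, with a 95% interval of 0.786 to 0.943 (log2 fold change -0.22, SE 0.06, adjusted p = 0.0685). DESeq2 put the adjusted p at 0.0408 and 0.0217 for these comparisons, and edgeR without D_C 2 at 0.0389 for the first. ND_B12 and ND_C did not overlap either, by 33.6 counts at the closest pair, with a fold change of 1.08-fold, with a 95% interval of 0.946 to 1.22. By the scaling of TPM these 2 groups overlapped, with ND_C 1 at 106.04 TPM and ND_B12 3 at 105.46 TPM.

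Mcee, the epimerase that hands the mutase its L-isomer, had the same order. Counts were 2065, 1928, 1993 and 1995 in ND_B12 and 1628, 1847, 1821 and 1643 in D_B12. They were 1759, 1833, 2041 and 1963 in ND_C and 1729.7, 1897, 1732 and 1760.2 in D_C. The B12-treated groups did not overlap and the untreated groups did. In TPM the B12-treated groups overlapped too, with D_B12 2 at 48.13 TPM and ND_B12 3 at 48.03 TPM. Diabetes in B12-treated mice gave 0.868-fold, with a 95% interval of 0.792 to 0.952 (log2 fold change -0.20, SE 0.06, adjusted p = 0.113). On average diabetes gave log2 fold change -0.15, SE 0.04, adjusted p = 0.0787, and DESeq2 an adjusted p of 0.0292.

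The mutase's helpers had lower means in diabetes, and none of these differences passed. Mmaa, the GTPase that loads the mutase, had counts of 1539, 1628, 1511 and 1699 in ND_C, 1569, 1441, 1532 and 1327 in ND_B12, 1529, 1489, 1298 and 1364 in D_C and 1416, 1489, 1268 and 1429.6 in D_B12. Diabetes in untreated mice gave log2 fold change -0.17, SE 0.07, adjusted p = 0.231, and on average log2 fold change -0.12, SE 0.05, adjusted p = 0.222. With the date of the library name as a covariate the average difference in Mmaa turned to 0.04. Mmab, the adenosyltransferase that makes the active cofactor, had 1257, 1399.6, 1487 and 1527 in ND_C, 1486, 1424, 1392 and 1269 in ND_B12, 1132, 1321, 1279 and 1338 in D_C and 1393, 1389, 1117 and 1144 in D_B12. Its average difference with diabetes was log2 fold change -0.15, SE 0.06, adjusted p = 0.196. In both genes the 2 groups of each comparison overlapped.

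Read over the whole set, no member was called in any of the 7 comparisons at an adjusted p below 0.05 by edgeR. For B12 in diabetic kidneys, 0 of 10 members were called by edgeR where 0% of all genes were, 2 (Mtr and Mmachc) had an unadjusted p below 0.05 against 13.6% of genes, and 1 (Mtr) did not overlap against 6.58%. For B12 in non-diabetic kidneys, 0 members were called and 0% of genes, 0 had an unadjusted p below 0.05 against 7.62%, and 1 (Mmut) did not overlap against 4.81%. For diabetes in untreated kidneys, 0 members were called against 1.66% of genes, 4 had an unadjusted p below 0.05 against 18.6%, and 1 (Mmachc) did not overlap against 9.44%. For diabetes in B12-treated kidneys, 0 members were called against 0.823% of genes, 2 had an unadjusted p below 0.05 against 17.0%, and 2 (Mmut and Mcee) did not overlap against 11.7%. Overlap is that of normalized counts. Of these non-overlaps, only that of Mmut in the last comparison held in TPM. TPM scales each library by its own sum per kilobase, in place of the median-of-ratios factor. Mtr, Mmachc and Mmut came almost wholly from a single transcript each, so for them the 2 measures differ by that scaling and hardly by length. In a set of 10 genes, 1 gene is 10% of the set. DESeq2 called 0 members in the first 3 of these comparisons and 1 (Mmut) in the last, against 3.78%, 0.0236%, 7.83% and 5.22% of the genes it gave an adjusted p.

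The comparisons over all 16 libraries read likewise. For the average effect of B12, 0 members were called and 0% of genes, and 1 had an unadjusted p below 0.05 against 5.20%. For the average effect of diabetes, 0 members were called against 3.02% of genes, and 4 had an unadjusted p below 0.05 against 19.4%, all 4 of them (Mmut, Mcee, Mmab, Mmaa) from the mitochondrial arm and lower in diabetes. DESeq2 called 2 of these, Mmut and Mcee, against 8.54% of genes. For the interaction, 0 members were called and 0% of genes, and 2 had an unadjusted p below 0.05 against 16.1%. DESeq2 called 0 members for the average effect of B12 and for the interaction, against 0.0236% and 4.62% of genes.

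The intervals of edgeR bounded the size of the differences between 2 groups. Leaving aside Abcd4, the 95% intervals of the other 9 genes for D_B12 against D_C lay between 0.830 and 1.39 fold, and those for ND_B12 against ND_C between 0.83 and 1.22 fold. For diabetes they lay between 0.759 and 1.25 fold in untreated and between 0.718 and 1.25 fold in B12-treated mice. Abcd4 reached 1.40 fold in the first of these, and those of the interaction for the 9 others lay between 0.735 and 1.53 fold. These bounds hold for this fit. With the date as a covariate, diabetes in B12-treated mice gave log2 fold changes of -0.79 for Abcd4 and -0.50 for Mmut. The median log2 fold change of the 10 was -0.06 for the average effect of diabetes, where all genes had a median of 0.01, and 0.02 for the average effect of B12.

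**Figure D3:**
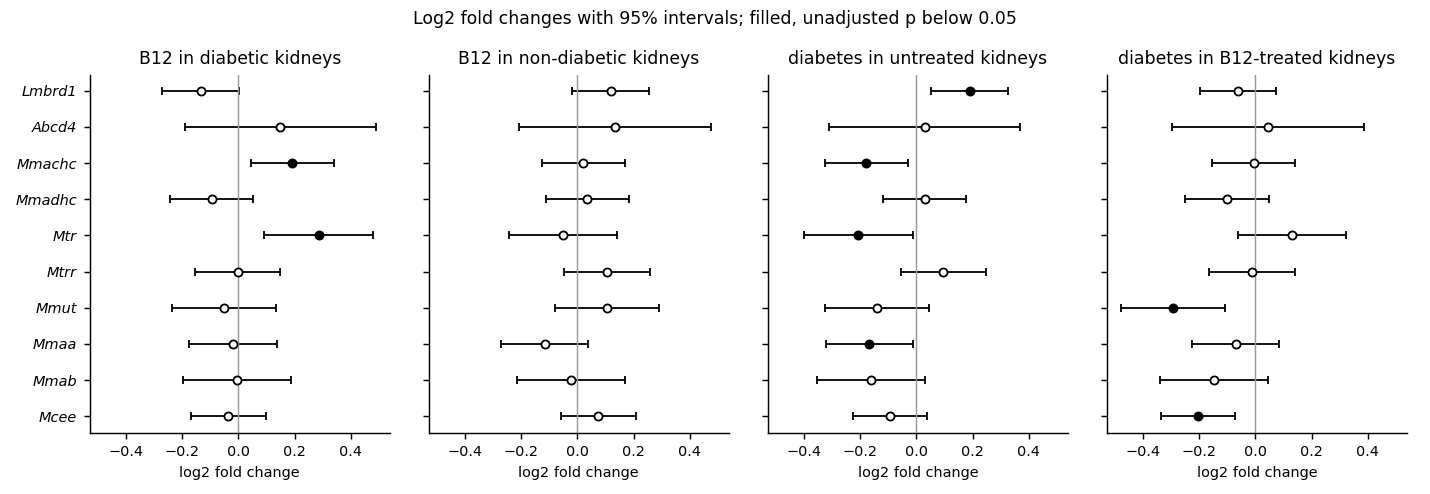
Log2 fold changes of the 10 members with 95% intervals from edgeR in the 4 comparisons of 2 groups. Filled points have an unadjusted p below 0.05, which are Mmachc and Mtr in the first panel, none in the second, Lmbrd1, Mmachc, Mtr and Mmaa in the third and Mmut and Mcee in the fourth.

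Genes around the mutase were taken as a list of 17 for the formation and use of propionyl-CoA, each tested on its own. On average, diabetes lowered 4 of the 17 (adjusted p below 0.05) and raised 0, where 548 of all 25408 genes were called lower and 219 higher. The log2 fold changes of all 17 were below 0, with a median of -0.12. DESeq2 called 5 of the 17 lower, the same 4 and Dbt, against 8.54% of genes called. Pcca, a subunit of propionyl-CoA carboxylase, whose product Mcee and Mmut convert, fell (log2 fold change -0.22, SE 0.04, adjusted p = 0.0121). Its partner Pccb fell too (log2 fold change -0.16, SE 0.04, adjusted p = 0.0393). Pcca counts were 9225 to 9988 in ND_C and 9986 to 10984 in ND_B12, against 8398 to 9316 in D_C and 7762 to 8725 in D_B12. Acat1, the thiolase of isoleucine breakdown, fell (log2 fold change -0.33, SE 0.05, adjusted p = 0.0116), as did Hibadh of valine breakdown (log2 fold change -0.19, SE 0.04, adjusted p = 0.0265). All 8 diabetic libraries had fewer Acat1 counts than any non-diabetic one but ND_B12 4, which lay below D_C 4 alone.

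In B12-treated mice the list had 4 of 17 called lower in diabetes, Pcca, Pccb, Acat1 and Hibadh, and in untreated mice 1, Acat1 (log2 fold change -0.31, SE 0.07, adjusted p = 0.0474). Over all 25408 genes, 143 and 185 were called lower in these comparisons. DESeq2 called 5 lower in B12-treated mice, the same 4 and Dbt, and 1 in untreated mice, Acat1. In B12-treated mice the values were log2 fold change -0.31, SE 0.05, adjusted p = 0.0282 for Pcca and log2 fold change -0.29, SE 0.06, adjusted p = 0.0364 for Pccb. The corresponding values were log2 fold change -0.34, SE 0.07, adjusted p = 0.0473 for Acat1 and log2 fold change -0.27, SE 0.06, adjusted p = 0.0423 for Hibadh. For B12 within diabetic or non-diabetic mice, 0 of 17 were called by edgeR and 0 by DESeq2, and 2 and 1 had an unadjusted p below 0.05. For the interaction 0 were called and 2 of 17 had an unadjusted p below 0.05, and DESeq2 called 1, Pccb. Pcca and Acat1 were called lower on average in each of the 16 fits that left out 1 library, Hibadh in 9 of them and Pccb in 6. Within treatment groups the calls were made for Acat1 in 4 of 16 such fits in untreated mice, and in B12-treated mice for Pcca in 10, Pccb in 7, Hibadh in 5 and Acat1 in 3. With the date as a covariate 0 of the 17 were called for the average effect of diabetes, and 0 genes of any kind were called.

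On the methionine side the list reported held 10 genes of the methionine cycle and its folate supply. On average, diabetes lowered 2 of these 10 and raised 0. Over all 25408 genes, 548 were called lower on average and 143 in B12-treated mice. DESeq2 also called 2 of the 10 lower in each of these comparisons. Cbs, which diverts homocysteine to cystathionine, fell (log2 fold change -0.50, SE 0.09, adjusted p = 0.0157), from 10394 ± 1558 and 10416 ± 1921 normalized counts in ND_C and ND_B12 to 8182 ± 1023 and 6613 ± 629 in D_C and D_B12. Ahcy, which frees homocysteine from S-adenosylhomocysteine, fell (log2 fold change -0.18, SE 0.04, adjusted p = 0.0337). In B12-treated mice 2 were called lower in diabetes, Cbs (log2 fold change -0.66, SE 0.13, adjusted p = 0.0418) and Ahcy (log2 fold change -0.36, SE 0.06, adjusted p = 0.0282). Without 1 library, Cbs was called on average in 16 of 16 fits and Ahcy in 6, and in B12-treated mice Cbs in 4 and Ahcy in 10. In untreated mice 0 of the 10 were called by edgeR and 0 by DESeq2, and 2 had an unadjusted p below 0.05. For B12 in diabetic kidneys edgeR called 0 and DESeq2 called 1, Ahcy.

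No core clock gene was called by edgeR between D_B12 and D_C, the comparison in which Mtr had its largest difference between 2 groups. At an unadjusted p below 0.05, all 3 activators were higher in D_B12 than in D_C and all 5 repressors lower, with median log2 fold changes of 1.47 and -0.74. DESeq2 called 1 of 3 activators higher (Bmal1) and 3 of 5 repressors lower (Cry1, Cry2 and Per3). The paper reports the opposite directions for B12 in diabetic kidneys, with the activators suppressed and the Cry and Per genes induced. The libraries labelled D_B12 are those that met the printed means of untreated diabetic mice, so these signs hold for the labels only. Summed activators were 77.4 to 100 CPM in D_C and 111 to 138 CPM in D_B12, and their part in the Mtr values was not tested.

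**Figure D4:**
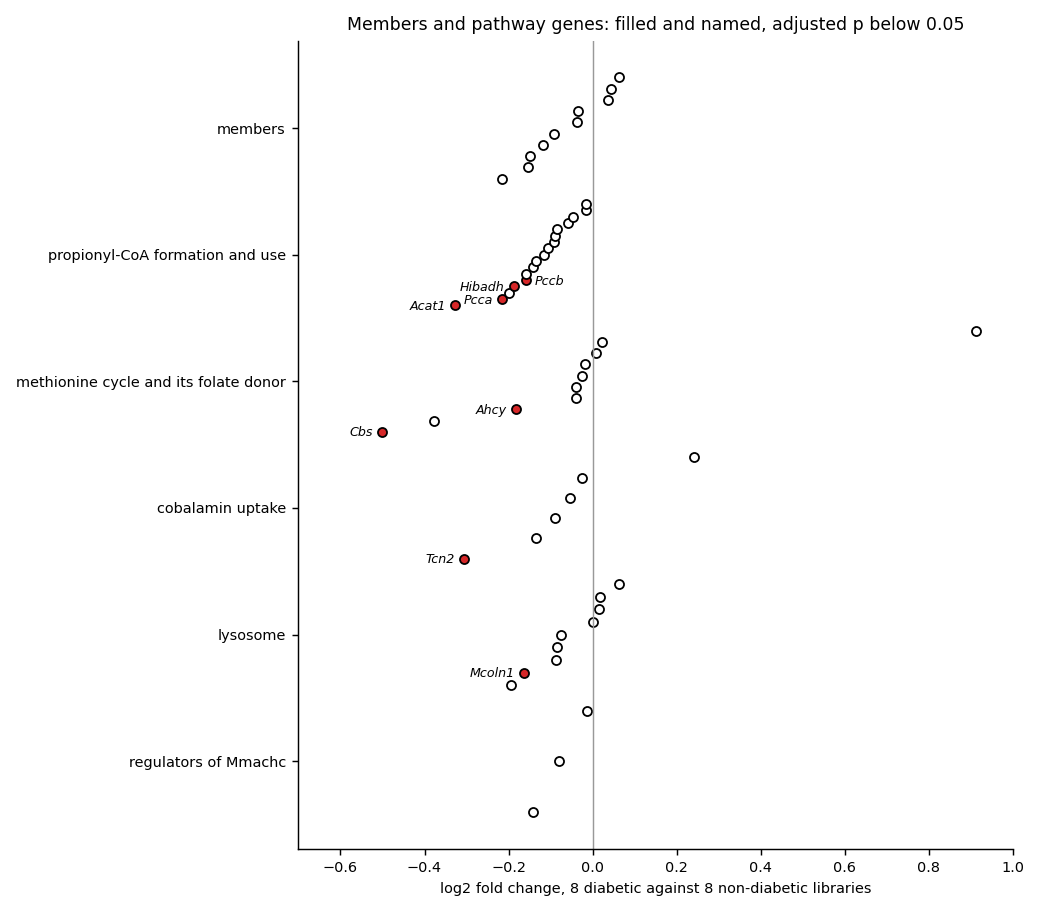
Log2 fold changes of the 10 members and of 45 pathway genes in 5 lists for the average effect of diabetes (linear axis). Filled points, named, have an adjusted p below 0.05 in edgeR. All filled points lie below 0, no member is filled, and the open point at 0.91 is Bhmt, a B12-independent homocysteine methyltransferase with an adjusted p of 0.102.

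The list of 6 genes for cobalamin uptake, among them 1 exporter, held 1 that was called lower in diabetes. Tcn2, the transcobalamin that carries B12 in blood and filtrate, fell on average (log2 fold change -0.31, SE 0.04, adjusted p = 0.00484), in untreated (log2 fold change -0.30, SE 0.06, adjusted p = 0.03) and in B12-treated mice (log2 fold change -0.32, SE 0.06, adjusted p = 0.029). Its counts were 95299.7 to 106029 in ND_C and 102436 to 106737 in ND_B12, and 79515 to 86788 in D_C and 78548 to 87702 in D_B12, so that no diabetic library reached a non-diabetic one. The calls of Tcn2 were made in 16 of 16 fits without 1 library on average, in 11 in untreated and in 9 in B12-treated mice. Abcc1, which exports cobalamin from cells, rose in untreated diabetic kidneys (log2 fold change 0.40, SE 0.10, adjusted p = 0.0492), a call made in 5 of the 16 fits without 1 library. DESeq2 called Abcc1 higher there and in diabetes on average. The other 4 of the 6 listed genes, Cubn, Amn, Lrp2 and Cd320, were called in no comparison by edgeR or DESeq2. Of 9 lysosomal genes, edgeR called 1, Mcoln1, a lysosomal cation channel, which fell in untreated diabetic kidneys (log2 fold change -0.26, SE 0.06, adjusted p = 0.038) and on average (log2 fold change -0.16, SE 0.04, adjusted p = 0.0403), in 8 and 4 of 16 fits without 1 library. DESeq2 also called Ctsl, a cathepsin, lower in diabetes on average and Mcoln1 higher in D_B12 than in D_C. Over all genes, edgeR called 1.66% for diabetes in untreated, 0.823% in B12-treated and 3.02% in all kidneys. DESeq2 called 7.83%, 5.22% and 8.54% for these, and 3.78% for B12 in diabetic kidneys. Among the regulators of Mmachc, 0 of 3 were called in any comparison by edgeR or by DESeq2. The 2 with the smallest p over the comparisons of 2 groups were Hcfc1, for B12 in non-diabetic kidneys (log2 fold change 0.19, SE 0.07, adjusted p = 0.602), and Thap11, for diabetes in B12-treated kidneys (log2 fold change -0.18, SE 0.07, adjusted p = 0.21).

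A total of 5 members share a start region with a protein-coding gene on the other strand. On GRCm39, Mmachc (chr4:116559108-116565752) overlaps Ccdc163 by 88 bases, and Mmut (chr17:41245567-41274873) overlaps Cenpq by 374 bases. The starts of Mtrr (chr13:68708894-68730288) and Fastkd3 are 42 bases apart, those of Mmab (chr5:114569093-114582173) and Mvk 94, and those of Mcee (chr7:64042355-64061876) and Mphosph10 123. Per the methods strand was assigned from intron motifs, which unspliced reads lack, so unspliced reads in the overlapping bases cannot be assigned to one of the pair. Cenpq, a kinetochore protein gene, fell with diabetes on average (log2 fold change -0.46, SE 0.08, adjusted p = 0.0136) and in B12-treated mice (log2 fold change -0.59, SE 0.12, adjusted p = 0.0418), from 337 ± 15.7 counts in ND_B12 to 224 ± 33.03 in D_B12. Its counts are far fewer than those of Mmut, and both genes had the same sign there. Ccdc163 had 513 ± 32.7 counts in ND_C and 395 ± 49.6 in D_C (log2 fold change -0.38, SE 0.11, adjusted p = 0.0905), also lower in the comparison in which Mmachc was. Fastkd3, Mvk and Mphosph10 passed in no comparison, with unadjusted p-values of 0.057 or more. The long noncoding genes Gm70099, Gm13483 and Gm4890 overlap the starts of Lmbrd1, Mmadhc and Mmaa by 602, 356 and 799 bases.

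The remaining positions on GRCm39 are chr1:24717610-24805383 for Lmbrd1, chr12:84648238-84664274 for Abcd4, chr2:50169893-50186813 for Mmadhc, chr13:12197598-12273090 for Mtr and chr8:79990227-80022068 for Mmaa. Mtr and Mtrr lie on the same chromosome, far apart.

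Counts per transcript showed that gene totals hide different mixes. Mmut, Mmachc, Mtr and Mmab came from a single transcript each, with mean shares of 99.9%, 99.7%, 98.6% and 97.99% of the gene's counts. Mmaa was split between a coding transcript of 5722 bases (ENSMUST00000048718, mean share 50.6%) and one of 1685 bases (ENSMUST00000210231, 49.4%), which the annotation marks for nonsense-mediated decay. These are shares of counts, which grow with length, so per kilobase the shorter transcript was the more abundant and made up most of the TPM of Mmaa. The coding transcript made up 44.8%, 50.03%, 38.7% and 42.6% of Mmaa counts in D_C and 68.8%, 53.05%, 70.3% and 52.2% in D_B12. In non-diabetic kidneys its shares were 46.2%, 47.99%, 41.9% and 38.5% untreated and 45.2%, 63.5%, 48.9% and 56.2% with B12. The share was higher in D_B12 than in D_C without overlap, by 17.1 percentage points, while the total of Mmaa was 1401 against 1420 counts. The exact permutation p was 0.0286, the smallest that 4 against 4 can give, and 0.561 after adjustment over the 24 transcript comparisons made. A lone shift cannot pass that adjustment, whatever its size, so the adjusted value does not decide whether the share differs. Short reads divided between transcripts that share exons carry an error of estimation that the spread between libraries only partly shows.

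Abcd4, Mtrr and Lmbrd1 were also mixtures. The main coding transcript ENSMUST00000021666 held 62.9% of Abcd4 counts on average, with 60.9%, 65.95%, 73.97% and 73.8% in D_C and 42.98%, 66.3%, 54.1% and 53.2% in D_B12 (exact permutation p = 0.0857, adjusted p = 0.561). The 3 most abundant transcripts annotated as retained introns held 11.7%, 11.1% and 4.90% on average. For Mtrr the main coding transcript ENSMUST00000045827 held 68.04%, ranging from 45.7% to 82.1% over the 16 libraries, and a longer coding one, ENSMUST00000223398, held 27.1%. Mean shares of the main transcript were 87.1% for Lmbrd1, 77.4% for Mcee and 76.98% for Mmadhc. In these 3 the exact permutation p was 0.143 or more in every comparison of 2 groups.

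**Figure D5:**
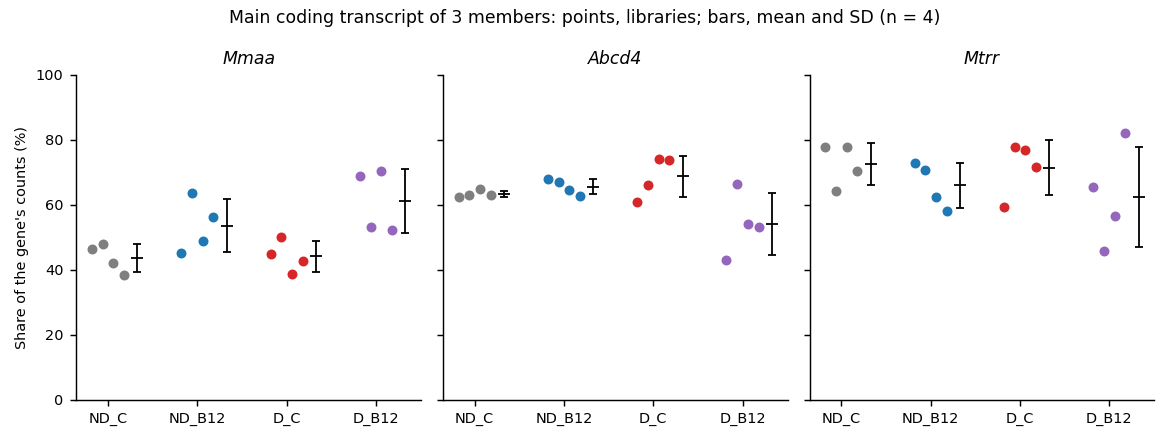
Share of the gene's counts (percent, linear axis from 0 to 100) held by the main coding transcript of Mmaa, Abcd4 and Mtrr. Points are the libraries of each labelled group in replicate order, and bars are mean and SD of 4. The 4 D_B12 points of Mmaa sit between 52.2% and 70.3%, above the 4 D_C points at 38.7% to 50.03%.

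Across the 16 libraries the gene most like Mmut was Man2b1, a lysosomal mannosidase, with a Pearson r of log2 CPM of 0.956. Dbt, a subunit of the branched-chain keto acid dehydrogenase, followed at 0.953, and Marchf8, a ubiquitin ligase, at 0.950. With group means removed the values were 0.914, 0.912 and 0.931. For Mtr the 3 most alike were Golt1b, Rpp40 and Armc6, at 0.883, 0.876 and 0.875, and at 0.902, 0.818 and 0.842 with group means removed. Among the members themselves, Mmadhc and Mcee (0.66) and Mmachc and Mmab (0.66) ran most alike, and Lmbrd1 ran most opposite to Mtr (-0.64) and Mmaa (-0.63). All these values come from the same 16 libraries, share their size factors and describe this set of animals only.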

How the data were processed

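Total RNA from 16 kidneys was sequenced as paired reads. Per the study's methods, the authors aligned them with STAR to GRCm39 with GENCODE vM35, quantified them with StringTie, and deposited estimated counts per gene and per transcript, which were whole numbers already. The labels' processing notes also name bcl2fastq 2.20.0. Columns were matched to samples by library name, and 0 columns were left over. The members and lists were chosen with earlier results of these data known.

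Genes reaching 100 counts summed over the libraries were analysed with edgeR 4.0.16 (TMM normalization, glmQLFit and glmQLFTest, R 4.3.3), in 1 fit of the 4 labelled group means with 12 residual degrees of freedom. P-values are two-sided, and adjusted p-values are Benjamini-Hochberg over all 25408 genes at a threshold of 0.05. SE is the log2 fold change over the root of F. The methods describe samples as biologically distinct, and p-values measure the spread between these libraries. Normalized counts are read counts corrected for library size by median-of-ratios factors, and CPM scales counts to a common library total. TPM was computed from the transcript counts and GENCODE vM39 lengths and scaled to a common sum per library, and 99.8% of counts matched a transcript. The closing fits used DESeq2 1.42.0, other normalizations, filters and covariates, and fits leaving out 1 library. The tests were tested on simulated data. No pair of libraries was a duplicate, with a chi-square per gene of at least 12.5 over 120 pairs. Named genes were the members, their head-to-head partners within 1000 bases, pathway genes with an adjusted p below 0.05 or else the 2 with the smallest p, and the 3 genes most alike to Mtr and to Mmut. Some genes of the methionine list are not reported here. Counts were read with pandas 2.3.3 under Python 3.11.15, and plots drawn with matplotlib 3.10.9.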

Additional observations from a re-analysis of the deposited data

Results flagged for a closer look

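Of 40 sets of 4 libraries (10 members in 4 groups), 2 held a library that stood apart from the other 3 by Dixon's criterion, where chance gives about 1 in 20. Abcd4 in D_C 1 had 1729.7 normalized counts and the other 3 had 2092 to 2144. Mtr in D_B12 3 had 3376.4 normalized counts and the other 3 had 3869.96 to 3966.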

How the results depend on the processing

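Over 165 alternative counts of members called, 161 equalled the reported count of 0. DESeq2 called 2 members for the average effect of diabetes (Mmut and Mcee) and 1 for diabetes in B12-treated kidneys (Mmut). Leaving out 1 library gave 0 to 1 members for diabetes in untreated kidneys (1, Lmbrd1, without D_C 1) and 0 to 1 for diabetes in B12-treated kidneys (1, Mmut, without D_C 2). D_C 1 was in the set that met the printed means of ND_B12. The cause was not tested. Over all genes these fits called 0 to 1552 (423 with all libraries; 0 without ND_C 2 or D_C 4, 2 without ND_C 3 and 1552 without D_C 1), 0 to 441 (209 with all; 0 without D_B12 1, 2 or 3 or ND_B12 2) and 235 to 1700 (767 with all) for diabetes in untreated, in B12-treated and in all kidneys, and 0 to 69 for B12 in diabetic kidneys. With the replicate number as a block, 0 members were called in each of the 7 comparisons, while calls over all genes fell from 423 to 269, from 209 to 25 and from 767 to 478 for diabetes in untreated, in B12-treated and in all kidneys and rose from 0 to 147 for the interaction. Same-numbered libraries deviated with correlations of -0.18 to 0.17 (3 of 24 pairs over 0.1), and 5 of 16 libraries correlated best with one of their own number, so the numbers were not used as pairs. Of 473 alternative values of 20 log2 fold changes of members, 9 reversed. With the date as a covariate these were Mmaa for the average effect of diabetes (0.0397) and, for B12 in diabetic kidneys, Abcd4 (-0.432) and Mtrr (0.0645). Mtrr, at -0.002 in the reported fit, was also 0.0195 with upper-quartile normalization and -0.0367 to 0.0528 without 1 library. With the date 0 genes of any kind were called for the average effect of diabetes, 204 for B12 in diabetic kidneys and 753 for the interaction, against 681 and 923 with DESeq2 for the last 2. Of 21 calls of pathway and partner genes, 13 were lost with the replicate block, 21 with the date and 0 with DESeq2, and 0 reversed. With the longest transcript's length, levels moved beyond their SD for 6 of 10 members, most for Mmaa (2.07 TPM in place of 11.4).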
